A study of Mus musculus with 13 samples.

Results

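The genes described here are the nuclear genes of mitochondrial complex I that carry the Nduf name, read in cells sorted from mouse-grown ovarian tumors under anti-VEGF-A treatment. Members were all genes whose symbol starts with Ndufa, Ndufb, Ndufc, Ndufs or Ndufv followed by a digit, and Ndufab1. Assembly factors, named Ndufaf, were left out. Each member needed a probe set that carries only 1 gene symbol, and where a gene had several, the brightest by its mean across the 13 arrays stood for it. The rule found 36 of 18193 genes. Of these, 35 passed the filter on dim genes and were tested among 15370 genes. The 35 include Ndufa4 and Ndufa4l2, which match the rule but are placed outside complex I, and counts and medians of members include both. All 35 lay above the floor on every one of the 13 arrays, so none entered through 1 group. Ndufb4 was the exception. Its only single-symbol probe set lay near the floor, and brighter probe sets for it carry the symbols of several Ndufb4 genes.

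Complex I, or NADH:ubiquinone oxidoreductase, is the entry point of the respiratory chain. Its N module takes electrons from NADH, its Q module passes them to ubiquinone, and its membrane arm pumps protons across the inner mitochondrial membrane. A small set of core subunits carries out the catalysis, and a larger set of accessory subunits surrounds and stabilizes them. The membrane arm's core subunits are encoded by mitochondrial DNA and are not Nduf genes. Tumor endothelial cells are known to lean on glycolysis, and low oxygen is known to lower respiration in many cell types.

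Gene expression was measured on 13 single-color mouse arrays in 3 groups. Cells were sorted on CD31, an endothelial surface protein, out of tumors of SKOV3ip1, a human ovarian cancer line grown in female athymic nude mice, so all groups share the host strain and the tumor line. The host lacks most T cells. The control group (5 arrays) is called control in the sample titles, without a treatment. The paper describes mice given control antibody, and its introduction also names cells collected before treatment. Which of these the control arrays are could not be told. The sensitive (4 arrays) and resistant (4 arrays) groups both received B20, an anti-VEGF-A antibody that blocks a signal for vessel growth, and were told apart by how the tumors responded during treatment. Per the paper, B20-treated tumors were taken at various time points, at maximal response or at progression. Response, length of treatment and time since implantation therefore cannot be told apart here. The labels call each array a biological replicate but give neither ages nor the animal behind it, so a p-value here covers the spread seen among these arrays.

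The sorted label was checked against cell type markers, since sensitive, resistant and control arrays were unlike in makeup. Median endothelial marker levels were 7.07 and 7.38 on control 4 and control 5 and 2.77 to 4.27 on the other 11 arrays. Pecam1, which encodes CD31 itself, stood at 6.56 on both of those control arrays and between 2.32 and 3.41 elsewhere. Median macrophage marker levels were 3.69 to 3.97 on sensitive 1, 2 and 3 and 7.25 to 9.13 on the other arrays. Mesothelial markers had medians of 8.84 and 8.30 on sensitive 1 and 2 and 6.23 to 7.10 on resistant 2, 3 and 4, against 2.595 to 5.48 elsewhere. The 3' to 5' difference, taken from the control probe sets of Actb and Gapdh and larger in degraded RNA, was 5.95 on sensitive 4 and 2.23 to 3.82 on the other arrays. In bulk samples fewer cells of a type and less RNA per cell cannot be told apart.

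Complex I genes were expressed well above the typical gene. On the log2 scale of the arrays the 35 tested members had a median level of 6.83, with a range from 3.89 (Ndufa4l2) to 9.89 (Ndufa1), against 4.30 over all 15370 genes. Levels of different probe sets reflect their probes as well as their transcripts, so no member is ranked against another. Within groups the members' median SD was 0.446, against 0.508 over all genes. The spread was uneven across groups, with a median SD of 0.267 in control, 0.614 in sensitive and 0.355 in resistant arrays.

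No member passed the test in any of the 3 comparisons, and neither did any other gene. At a limma adjusted p below 0.05, 0 of 35 members were called, beside 0 of 15370 genes (0%) in each comparison. The statements below therefore describe values, unadjusted counts and groups that do not overlap. The smallest exact permutation p that 4 against 5 arrays allow is 0.007937, and that of 4 against 4 arrays is 0.02857. After Benjamini-Hochberg adjustment over all genes, the lowest value among the members named below was 0.3253 for the exact permutation test.

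**Figure D1:**
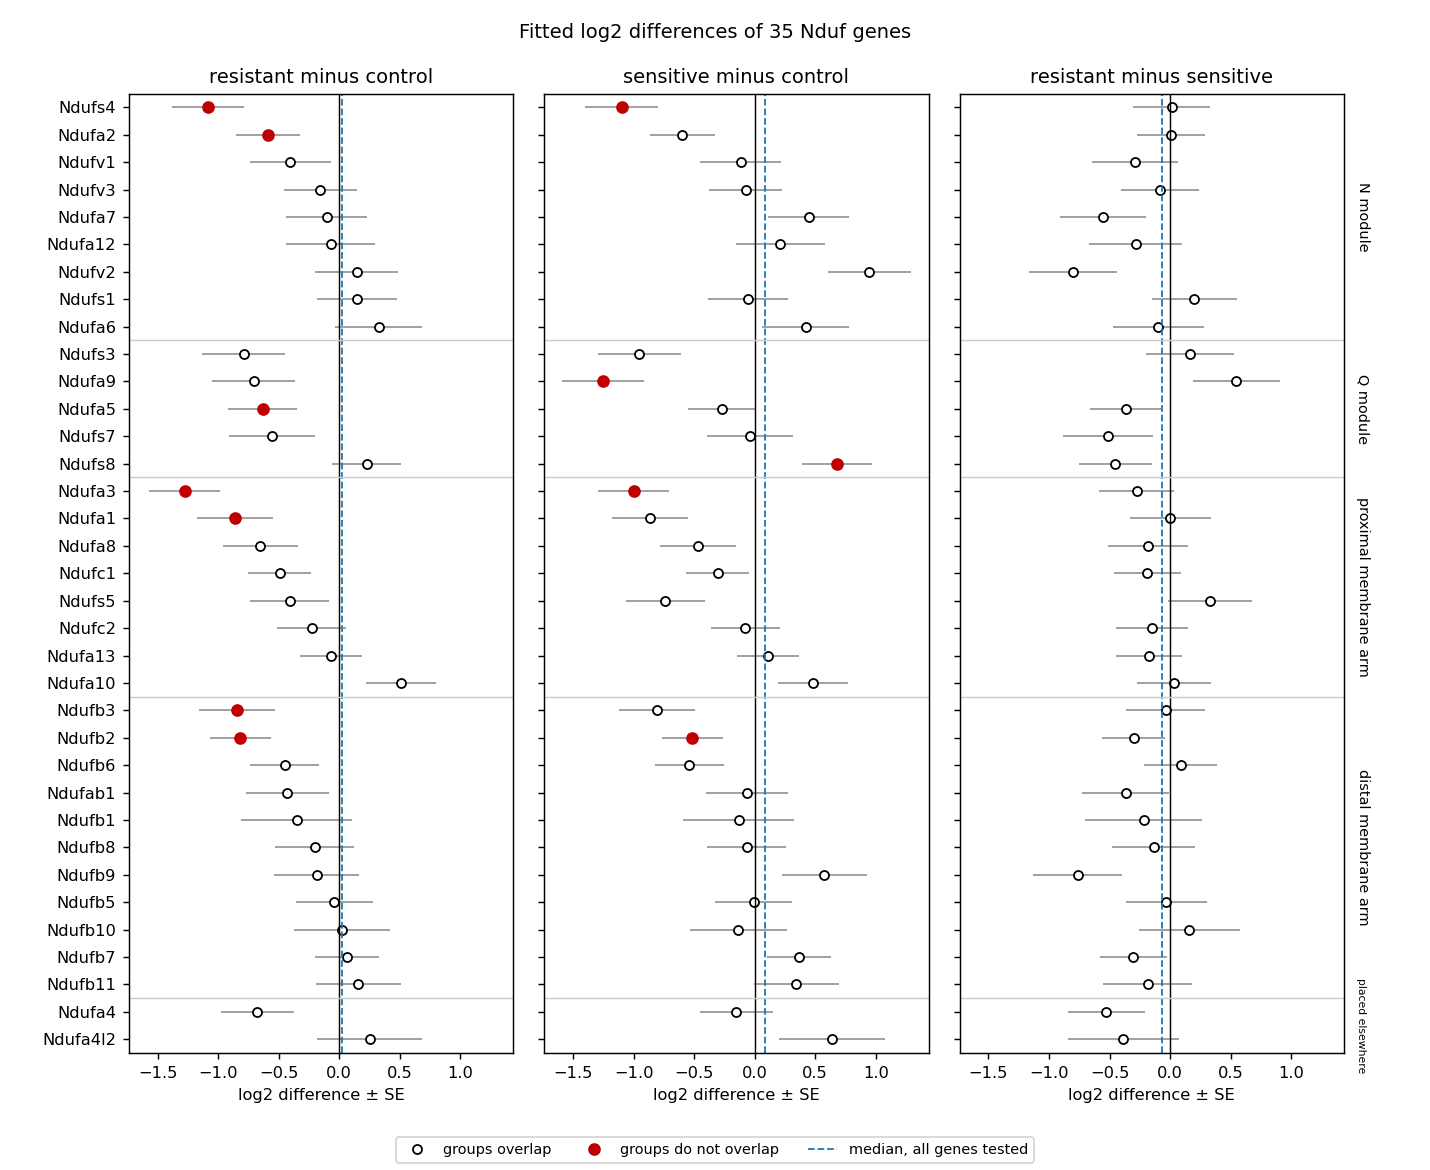
Fitted log2 difference (x axis, log2 units) of each of the 35 tested Nduf genes (rows, grouped by part of the complex) in the 3 comparisons, with bars for the standard error. Filled red points mark genes whose groups do not overlap, and the dashed line is the median over all 15370 genes. Most points of the left panel lie left of 0, with Ndufa3 lowest at -1.28, and no point of the right panel is filled.

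In resistant arrays most complex I genes stood below control. Of the 35 members 26 had a lower and 9 a higher mean than control, where 45.7% of all genes were lower and 54.3% higher. The members' median log2 difference was -0.35, against 0.03 over all genes. At an unadjusted limma p below 0.05, 9 members were lower and 0 higher, while the shares over all genes were 1.53% and 0.982%. Groups did not overlap for 7 members, all lower, against 1.39% of all genes lower and 1.31% higher. These 7 were Ndufa3, Ndufs4, Ndufb2, Ndufa1, Ndufb3, Ndufa5 and Ndufa2, and they belong to all 4 parts of the complex. Without resistant 4 the count was 11, beside 2.17% of all genes, and without resistant 1 it was 10, beside 3.65%.

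Ndufa3, an accessory subunit of the membrane arm, had the smallest p of the members against control. Its level was 8.44, 8.07, 8.27, 8.06 and 7.99 on the control arrays, 6.64, 7.50, 7.77 and 6.76 on the sensitive arrays and 7.29, 7.03, 6.71 and 6.54 on the resistant arrays. Every B20 array lay below every control array. The resistant mean was 6.89 ± 0.334 (SD, n = 4) and the control mean 8.17 ± 0.184 (SD, n = 5), a log2 difference of -1.28 (SE 0.293) or 2.42-fold, with a limma adjusted p of 0.9999 and an exact permutation p of 0.007937. In sensitive arrays the difference from control was -0.999 (SE 0.293, limma adjusted p = 0.2599). A second bright probe set of Ndufa3 gave -1.66 and -1.33 in the same comparisons.

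Ndufs4, an accessory subunit of the NADH-oxidizing end whose loss causes complex I deficiency in people and mice, showed the same separation. Control arrays read 6.65, 6.39, 6.49, 6.28 and 6.11. Sensitive arrays read 5.28, 4.62, 5.47 and 5.76, and resistant arrays 5.21, 5.204, 4.90 and 5.88. All 8 B20 arrays fell below the lowest control array. The log2 difference was -1.08 (SE 0.301) for resistant minus control and -1.10 (SE 0.301) for sensitive minus control, with limma adjusted p values of 0.9999 and 0.2443. The 3 dimmer probe sets of Ndufs4 gave -0.47, 0.10 and 0.19 for resistant minus control, so the probe sets disagree.

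Ndufb2, an accessory subunit of the distal membrane arm, differed less in size but had little spread. Its control arrays read 6.24, 6.07, 6.33, 6.003 and 5.86, its sensitive arrays 5.50, 5.60, 5.70 and 5.54, and its resistant arrays 5.26, 5.17, 4.95 and 5.75. Again no B20 array reached the lowest control array. The log2 difference was -0.82 (SE 0.250, limma adjusted p = 0.9999) in resistant and -0.51 (SE 0.250, limma adjusted p = 0.434) in sensitive arrays. Its 2 dimmer probe sets gave -0.22 and -0.16 in resistant and 0.20 and 0.43 in sensitive arrays, so the lower level in sensitive arrays rests on 1 probe set.

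Ndufa3, Ndufs4 and Ndufb2 were the 3 members with all 8 B20 arrays below all 5 control arrays. This split was looked at after the values were seen. No member had all B20 arrays above control, and over all genes 0.254% lay below and 0.169% above. Under array weights, which count arrays that deviate less for more, these same 3 genes passed the limma test in resistant minus control, with adjusted p values of 0.02228, 0.03678 and 0.04959 for Ndufa3, Ndufs4 and Ndufb2, beside 34 genes in all (0.221%). With arrays centred on their medians, none of the 3 lay below control without overlap in sensitive arrays. The same held with the mean of all probe sets of a gene. With the most variable probe set, Ndufs4 and Ndufb2 overlapped control in both B20 groups.

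**Figure D2:**
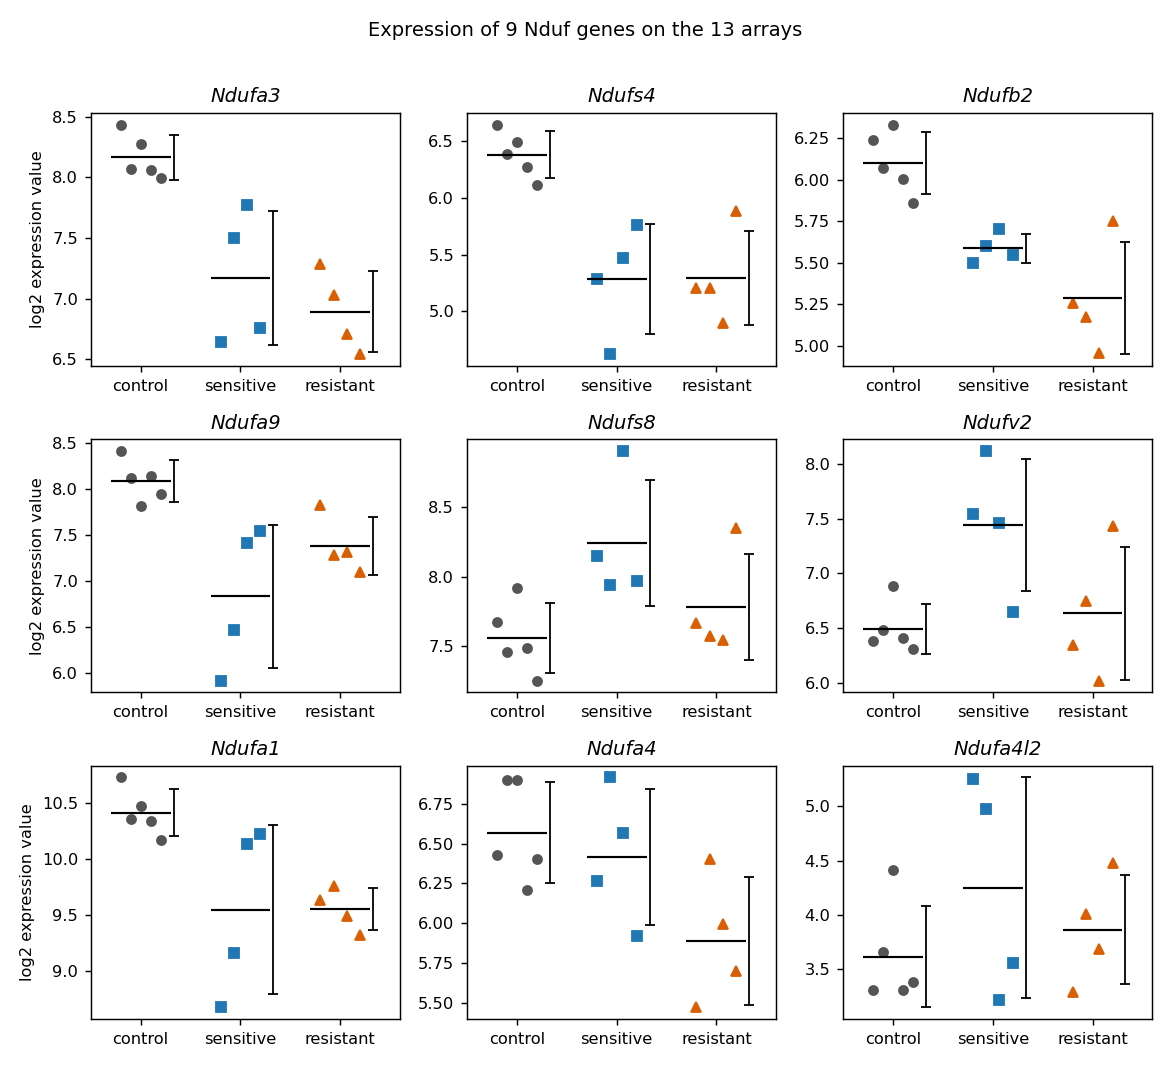
Log2 expression (y axis) of 9 Nduf genes on each of the 13 arrays, by group (control 5, sensitive 4, resistant 4), with horizontal lines for group means and bars for the SD. For Ndufa3, Ndufs4 and Ndufb2 every sensitive and resistant point lies below every control point, while Ndufs8 and Ndufv2 have their highest group mean in sensitive arrays.

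The promoters of these 3 genes are shown because the genes separate B20 from control arrays together. Sequences are from RefSeq on GRCm38.p6, and the table used held promoters for 32 of the 36 members. The 100 bases before the start site given there read as follows, with a CRE word (TGACGTCA, the site bound by CREB) in capitals where 1 is present.
Ndufa3, chr7:3617273-3617372, plus strand: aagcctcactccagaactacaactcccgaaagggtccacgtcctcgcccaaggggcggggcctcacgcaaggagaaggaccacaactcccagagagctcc
Ndufb2, chr6:39592465-39592564, plus strand: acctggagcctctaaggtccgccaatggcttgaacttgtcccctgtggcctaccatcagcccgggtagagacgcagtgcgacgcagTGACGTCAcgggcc
Ndufs4, chr13:114388095-114388194, minus strand: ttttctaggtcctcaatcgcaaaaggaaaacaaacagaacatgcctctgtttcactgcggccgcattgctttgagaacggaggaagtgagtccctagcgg
The CRE word stands just before the start of Ndufb2 and is not in these letters of the other promoters.

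Respiratory genes are known targets of NRF1, ETS factors and YY1, and words for these factors were searched on both strands of 300 bases, 250 before and 50 after each start. The ETS core CCGGAAG was found for 4 of 32 members (Ndufb6, Ndufb7, Ndufs3 and Ndufs8), or 12.5%, against 9.93% of all 27025 genes with a promoter. The NRF1 palindrome GCGCATGCGC was found for 0 of 32 members and 1.07% of all genes. AAGATGGC, a YY1 word, was found for 6 of 32 members (18.8%) against 3.19%, and the CRE word for 2 of 32 (Ndufa10 and Ndufb2), or 6.25%, against 2.03%. The last pair of words was chosen after the sequences had been read. Because AAGATGGC holds the letters ATG it can span a start codon, and whether it does was not tested. Of the 6 members that hold it, Ndufa3 and Ndufs4 did not overlap control in either B20 group, and Ndufa9 only in sensitive arrays. Over all 35 members 4 lay lower without overlap in sensitive and 7 in resistant arrays, beside 1.59% and 1.39% of all genes. A link between the word and these differences was not tested. The 30 bases around the word (capitals) are given for Ndufa3, Ndufs4 and Ndufa9.
Ndufa3, chr7:3617384-3617413, plus strand: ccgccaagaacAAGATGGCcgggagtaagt
Ndufs4, chr13:114388045-114388074, minus strand: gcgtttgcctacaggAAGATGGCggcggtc
Ndufa9, chr6:126849097-126849126, minus strand: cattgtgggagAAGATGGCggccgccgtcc
Ndufb8, Ndufc1 and Ndufs7 hold the word too, and their groups overlapped in every comparison. A match in the letters is no evidence that the factor binds.

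Among the subunits of the N module, 6 of 9 tested members were lower in resistant than control arrays, with a median log2 difference of -0.11. Ndufs4 and Ndufa2 had the lowest differences of the module and were also the ones without overlap. Ndufa2 read 8.39, 8.49, 8.47, 8.40 and 8.02 in control and 7.67, 7.80, 7.81 and 7.78 in resistant arrays, a log2 difference of -0.59 (SE 0.267, limma adjusted p = 0.9999). Ndufv1, a core subunit which binds NADH and FMN, gave -0.40 (SE 0.337), and its 2 dimmer probe sets gave -0.96 and -0.46. Ndufv2 and Ndufs1, which carry iron-sulfur clusters, gave 0.14 (SE 0.346) and 0.15 (SE 0.333), and Ndufa6 was highest at 0.33 (SE 0.358).

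In the Q module 4 of 5 tested members were lower in resistant arrays, with a median of -0.63. Ndufs3, a core subunit, was lowest with 6.12 ± 0.454 (SD, n = 4) against 6.91 ± 0.375 (SD, n = 5), a difference of -0.79 (SE 0.344, limma adjusted p = 0.9999). Ndufa5, an accessory subunit, differed by -0.63 (SE 0.283) without overlap. Ndufs7 gave -0.55 (SE 0.352). Ndufs8, which like Ndufs7 carries iron-sulfur clusters, was the exception at 0.23 (SE 0.286).

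The proximal membrane arm held 7 lower members of 8 and a median of -0.45. Ndufa1, a small subunit needed for assembly of the complex, read 10.73, 10.36, 10.48, 10.35 and 10.17 in control and 9.64, 9.76, 9.50 and 9.32 in resistant arrays. These groups did not overlap, and the difference was -0.86 (SE 0.315, limma adjusted p = 0.9999). Ndufa10 went the other way in value, at 0.51 (SE 0.288). The median over the 8 genes of this arm was 7.64 to 8.08 on control, 6.78 to 7.60 on sensitive and 6.95 to 7.61 on resistant arrays. Neither B20 group overlapped control in this median, but the gap was narrow. In the N module, the Q module and the distal membrane arm this median overlapped control in both B20 groups. How often such medians separate in other gene lists was not counted.

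In the distal membrane arm 8 of 11 tested members were lower in resistant than control arrays, with a median of -0.20. Ndufb3 was lowest at -0.84 (SE 0.311, limma adjusted p = 0.9999), with 6.27, 6.89, 6.68, 6.03 and 5.89 in control and 5.64, 5.68, 5.09 and 5.62 in resistant arrays. Ndufb11 was highest at 0.16 (SE 0.348). Ndufab1, the mitochondrial acyl carrier protein, gave -0.43 (SE 0.341). Within this arm Ndufb3 and Ndufb2 thus did not overlap control, while others differed little in value, and none passed the test. Whether members of 1 arm differ from each other was not tested.

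A pair of genes carry the Nduf name but are placed elsewhere, and both are counted among the members tested. Ndufa4, now assigned to cytochrome c oxidase, read 6.43, 6.90, 6.90, 6.21 and 6.41 in control and 5.47, 6.40, 5.99 and 5.70 in resistant arrays. The ranges overlapped, and the difference was -0.68 (SE 0.2999, limma adjusted p = 0.9999). Ndufa4l2, a gene known to be induced by HIF-1 in low oxygen, read 3.31, 3.66, 4.41, 3.31 and 3.38 in control, 5.25, 4.97, 3.22 and 3.56 in sensitive and 3.29, 4.004, 3.68 and 4.48 in resistant arrays. Its highest levels were on sensitive 1 and 2, the arrays with the highest mesothelial medians, and the part of these cells in its level was not tested. Ndufa4l2 differed by 0.25 (SE 0.437) between resistant and control and by -0.39 (SE 0.461) between resistant and sensitive.

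Sensitive arrays differed from control in both directions. The members' median log2 difference was -0.08, against 0.09 over all genes, with 24 members lower and 11 higher, where 41.6% of all genes were lower and 58.4% higher. At an unadjusted limma p below 0.05, 8 members were lower and 2 higher, against 6.58% and 5.31% of all genes. Groups did not overlap for 4 lower members (Ndufa9, Ndufs4, Ndufa3 and Ndufb2) and 1 higher (Ndufs8), against 1.59% and 1.43%. The median depended on the scaling and on single arrays. It was 0.033 without sensitive 1. It was -0.44 in the values as deposited, with 28 members lower and 8 higher, and -0.57 after centring each array on its median, with 30 lower and 5 higher. With that centring 0 members lay below control without overlap, beside 1.59% of all genes. Without control 5, or without sensitive 3, this count was 8, beside 2.44% and 3.04% of all genes.

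Ndufa9, an accessory subunit at the junction of both arms that is needed for a stable complex, had the smallest p in this comparison. Control arrays read 8.41, 8.12, 7.82, 8.14 and 7.94. Sensitive arrays read 5.91, 6.46, 7.41 and 7.54, and resistant arrays 7.83, 7.28, 7.32 and 7.09. All sensitive arrays lay below control, with sensitive 1 and 2 lowest, while 1 resistant array reached the control range. The difference was -1.25 (SE 0.340) or 2.39-fold for sensitive minus control (limma adjusted p = 0.2443) and -0.71 (SE 0.340, limma adjusted p = 0.9999) for resistant minus control.

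Without sensitive 4, the array with the largest 3' to 5' difference, Ndufa9 passed the limma test at -1.49 (adjusted p = 0.0231), as did Ndufs4 at -1.26 (adjusted p = 0.03774). With the 3' to 5' difference as a covariate Ndufa9 also passed, at -1.49 (adjusted p = 0.03774). In these settings 696 (4.53%) and 424 (2.76%) of all genes passed, so the calls are not particular to complex I. Ndufs3, Ndufa1, Ndufb3, Ndufs5 and Ndufa2 completed the members lower at an unadjusted p below 0.05, with differences of -0.95, -0.86, -0.81, -0.74 and -0.60.

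The 2 members higher in sensitive arrays at an unadjusted limma p below 0.05 were both core subunits. Of the 6 nuclear core subunits tested, 2 were higher in value and 4 lower, with a median of -0.05. Ndufv2 read 6.39, 6.49, 6.88, 6.41 and 6.31 in control, 7.54, 8.11, 7.46 and 6.65 in sensitive and 6.35, 6.75, 6.02 and 7.43 in resistant arrays. Only sensitive 4 overlapped control. The difference was 0.95 (SE 0.346, limma adjusted p = 0.3302), and a dimmer probe set gave 1.16 while another gave -0.09. Ndufs8 read 7.68, 7.46, 7.92, 7.49 and 7.25 in control and 8.15, 7.94, 8.90 and 7.97 in sensitive arrays, without overlap, and differed by 0.68 (SE 0.286, limma adjusted p = 0.3831). Of its 5 other probe sets 4 were higher in sensitive arrays, at 1.01, 0.81, 0.48 and 0.23, and 1 was lower at -0.13.

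Resistant and sensitive arrays, the comparison at the center of the study, overlapped for each complex I gene. Of the 35 members 25 were lower and 10 higher in resistant arrays, where 57.9% of all genes were lower and 42.1% higher. The median log2 difference was -0.18, against -0.07 over all genes. Its sign depended on the scaling. It was 0.1001 in the values as deposited, where 23 members were higher and 13 lower and the median of all genes was -0.04, and 0.19 when arrays were centred on their medians, where 25 were higher and 10 lower and that of all genes was 0.04. At an unadjusted limma p below 0.05, 1 member was lower and 0 higher, against 2.53% and 4.54% of all genes. Groups overlapped for all 35 members, while 0.898% of all genes lay lower and 0.976% higher without overlap. Without resistant 4, 4 members lay lower without overlap (2.2% of all genes), and without sensitive 1 or sensitive 4 it was 3 (1.91% and 3.86%).

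Ndufv2 had the smallest p of the members, with 6.64 ± 0.606 (SD, n = 4) in resistant and 7.44 ± 0.601 (SD, n = 4) in sensitive arrays, a difference of -0.80 (SE 0.364, limma adjusted p = 0.7031). Ndufb9, of the distal arm, read 9.08, 9.02, 8.31 and 7.59 in sensitive and 7.49, 7.95, 7.39 and 8.12 in resistant arrays, a difference of -0.76 (SE 0.367), but a second probe set gave 0.34. Ndufa7 gave -0.55 (SE 0.355) and Ndufa4 -0.53 (SE 0.316). The lowest of the Q module was Ndufs7 at -0.52 (SE 0.371), and Ndufa9 was highest of all at 0.55 (SE 0.359). Over the 35 members the SE of this comparison ran from 0.26 to 0.48.

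Sensitive 1 and sensitive 3 set much of the spread. Of the 35 members 15 had their lowest value on sensitive 1 and 9 their highest on sensitive 3. Sensitive 3 had the highest B cell, T cell and NK cell marker medians, at 7.64, 4.82 and 6.05. The other arrays reached at most 5.51, 3.77 and 5.03. Sensitive 1 had the highest adipocyte marker median, at 5.31 against at most 3.30 elsewhere. The part of these cells in the member values was not tested. The members' median was 6.42, 6.91, 7.33 and 6.95 on the sensitive arrays, 6.71, 6.70, 6.51 and 7.09 on the resistant arrays and 7.24, 7.27, 7.03, 6.85 and 6.63 on the control arrays. The groups overlapped in this median. Control 4 and 5, the arrays with endothelial markers, had the lowest medians of their group. Without these 2 arrays 12 members lay below control without overlap in resistant arrays (3.17% of all genes) and 10 in sensitive arrays (3.37%).

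**Figure D3:**
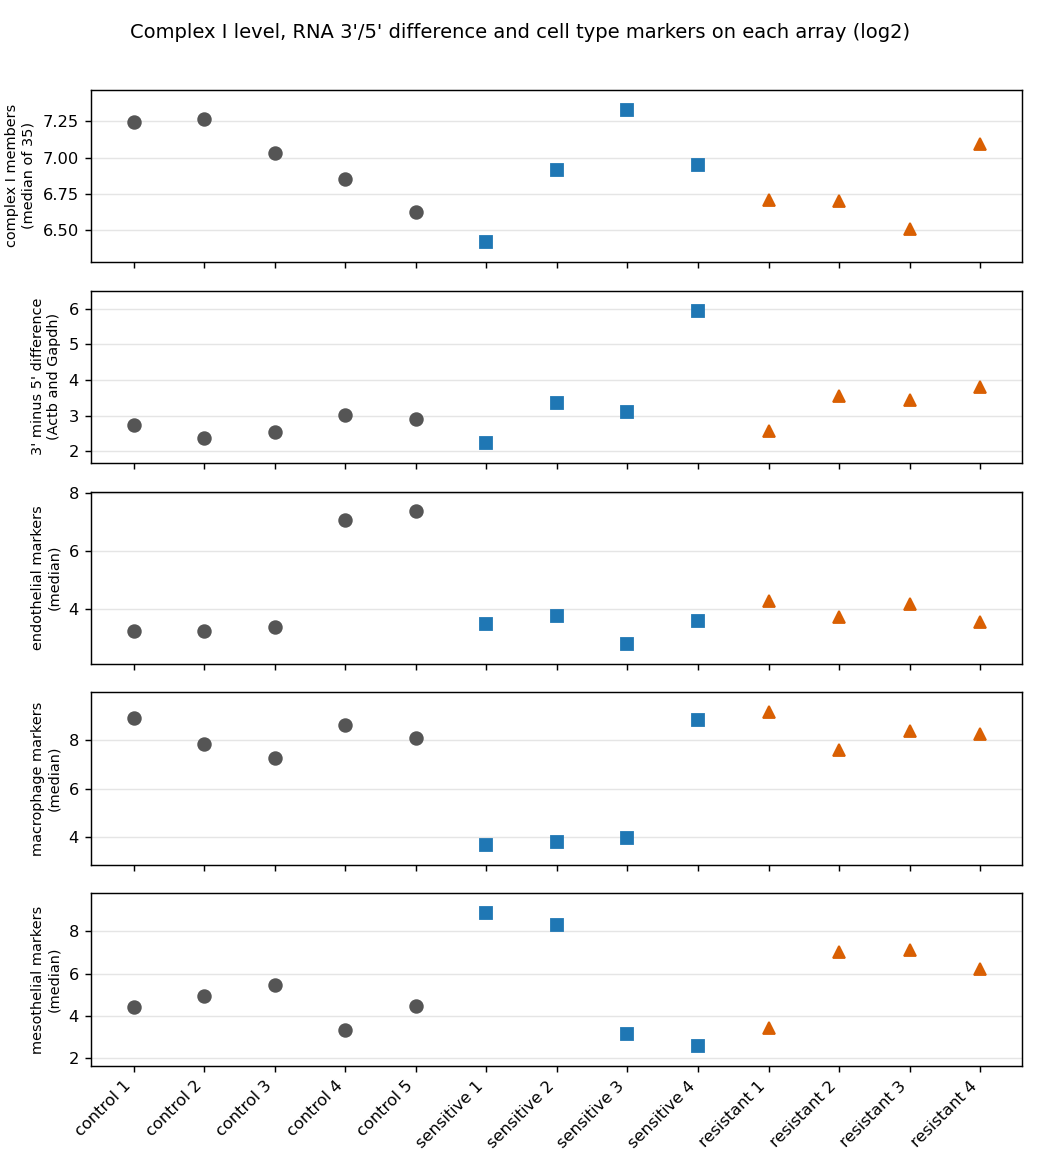
Log2 levels on each of the 13 arrays (x axis): the median of the 35 Nduf genes, the 3' minus 5' difference of Actb and Gapdh, and medians of endothelial, macrophage and mesothelial markers. Symbols and colors mark control, sensitive and resistant arrays. The complex I median runs from 6.42 on sensitive 1 to 7.33 on sensitive 3, endothelial markers are high only on control 4 and 5, and macrophage markers are low only on sensitive 1, 2 and 3.

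Mean marker levels differed between groups, but not every array of a group went along. Relative to control, 16 of 17 endothelial markers had lower means in each B20 group, and all 9 mesothelial markers had higher means in each. Endothelial medians were 3.20, 3.22 and 3.36 on control 1, 2 and 3, below the 3.52 to 4.27 of the resistant arrays. Mesothelial medians on sensitive 3 and 4 (3.14 and 2.595) lay below every control array (3.32 to 5.48). Macrophage markers were lower for 14 of 14 genes in sensitive arrays and higher for 8 of 14 in resistant arrays. The summed level of a list on the log2 scale was 7.70 to 11.7 in control, 7.09 to 9.002 in sensitive and 8.57 to 8.82 in resistant arrays for endothelial markers, and 13.4 to 14.1, 10.6 to 14.2 and 13.4 to 14.2 for macrophage markers. For mesothelial markers it was 6.71 to 9.34, 6.33 to 11.7 and 6.71 to 10.5. No endothelial, macrophage or mesothelial marker was at the floor on every array of a group. Neutrophil marker medians were 4.885 to 6.17 in control, 2.56 to 4.14 in sensitive and 3.60 to 4.74 in resistant arrays. Neither B20 group overlapped control in this median. Of 5 neutrophil genes 5 had lower means in sensitive arrays, and 3 lower and 2 higher means in resistant arrays. In each comparison 2 of them lay lower without overlap, beside 1.59% and 1.39% of all genes. The part of cell makeup in the complex I values was not tested. Without sensitive 1 and 2 and resistant 2 and 3, the B20 arrays high in mesothelial markers beside resistant 4, 8 members lay below control without overlap in resistant arrays, beside 5.09% of all genes, and the median difference was -0.15.

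The rest of the respiratory chain was read in the same way. In resistant minus control arrays the median log2 difference was -0.28 for complex II (4 genes), -0.34 for complex III (9 genes), -0.16 for complex IV (9 genes) and -0.39 for complex V (15 genes), against 0.03 over all genes. No gene of these lists passed the test. In complex V, the ATP synthase, 14 of 15 genes were lower in value, among them Atp5e at -0.89 (SE 0.316) and Atp5j at -0.60 (SE 0.245), the latter without overlap. Of complex III, Uqcrh gave -1.30 (SE 0.477) and Uqcrb -0.66 (SE 0.251), both without overlap. The lower values in resistant arrays were thus also present in other complexes, and a difference between complex I and these was not tested.

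Other mitochondrial genes were read in 3 further lists. Complex I assembly factors (13 genes) had a median of -0.18 in resistant and -0.24 in sensitive arrays against control, the latter turning to 0.07 with a floor at the 50th percentile and to 0.06 with the mean of all probe sets. Mitochondrial ribosome proteins (76 genes) had medians of -0.15 and -0.05, and genes of the TCA cycle and pyruvate dehydrogenase (15 genes) -0.04 and -0.20. With arrays centred on their medians these pairs became -0.24 and -0.31 for the ribosome and -0.13 and -0.58 for the TCA cycle list. None of these genes passed the test. Of 13 subunits encoded by mitochondrial DNA 0 could be matched to a probe set by symbol.

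Regulators of mitochondrial biogenesis (10 genes) had a median of 0.69 in sensitive minus control, 0.06 in resistant minus control and -0.63 in resistant minus sensitive arrays. These sizes depended on the scaling and on the probe set. The sensitive minus control median was 0.32 in the values as deposited, 0.2012 with median centring and 0.2027 with the mean of all probe sets. That of resistant minus sensitive was -0.33, -0.25 and -0.25 in these settings, and that of resistant minus control turned to -0.01, -0.04 and -0.01. Ppargc1b, a coactivator that drives respiratory genes, gave 1.02 (SE 0.295) in sensitive minus control and -0.88 (SE 0.311) in resistant minus sensitive arrays. Its relative Pprc1 gave 1.18 (SE 0.350) and -0.95 (SE 0.369). Genes of the switch away from respiration in low oxygen (8 genes) had a median of 0.50 in resistant minus sensitive arrays, which was 0.8022 as deposited and 0.89 with median centring, with Bnip3, a mitophagy receptor, at 1.99 (SE 0.563) and Ldha, lactate dehydrogenase, at 0.94 (SE 0.372). In resistant minus control arrays Bnip3 gave 0.88 (SE 0.534). On the sensitive arrays Pprc1 read 6.56, 7.10, 7.13 and 5.56, against 5.07 to 5.84 in control. Ppargc1b read 5.12, 5.04, 4.63 and 3.92, against 3.30 to 4.10, Bnip3 7.15, 7.33, 5.40 and 8.28, against 7.16 to 8.71, and Ldha 9.61, 8.59, 8.91 and 10.145, against 10.08 to 10.76. Sensitive 4 lay within the control range for all 4 genes, and sensitive 1, 2 and 3 were the arrays with low macrophage markers, whose part in these values was not tested. None passed the limma test after adjustment. The comparisons share their control or B20 arrays, so their values are not independent.

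**Figure D4:**
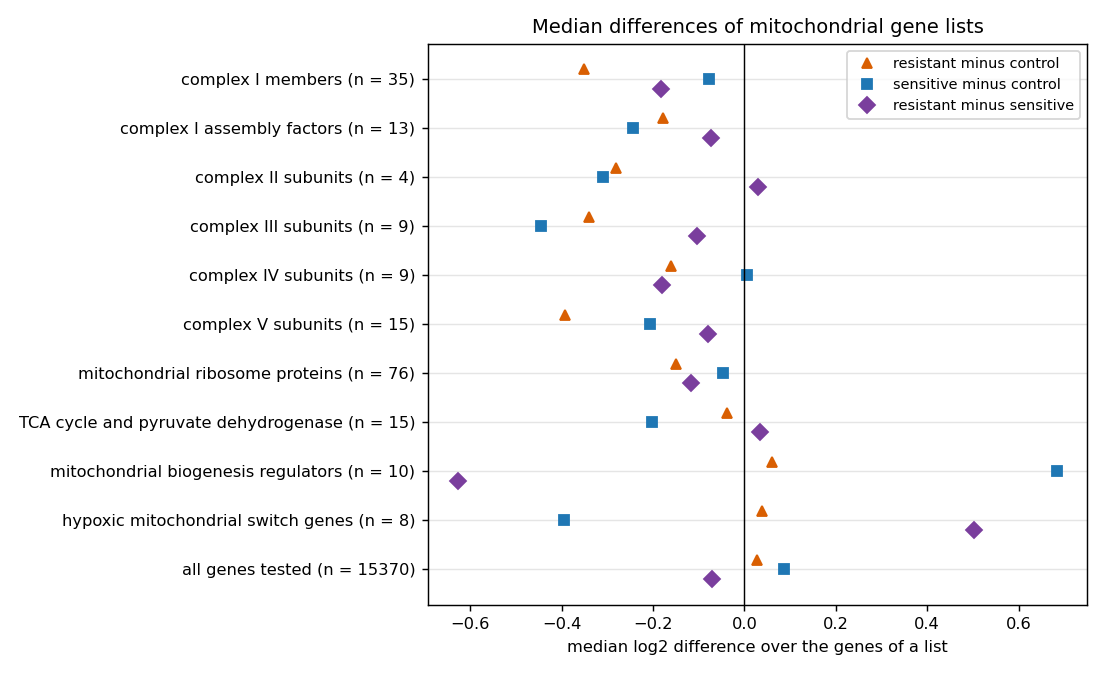
Median log2 difference (x axis) over the tested genes of each list (rows, with the number of genes) in the 3 comparisons, marked by symbol and color, with the median of all 15370 genes in the last row. Complex I (-0.35) and complex V (-0.39) have the lowest medians in resistant minus control, and the biogenesis regulators run from 0.69 in sensitive minus control to -0.63 in resistant minus sensitive. With arrays centred on their medians the latter became 0.2012 and -0.25.

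Probe sets limit what can be said of single members. Over 20 genes, 40 further single-symbol probe sets lay above the floor on at least 4 arrays. Of these, 28 had the sign of the probe set used in resistant minus control, 27 in sensitive minus control and 28 in resistant minus sensitive arrays. Some members also have near-identical copies, and probe sets with several symbols were kept apart. Among these, the probe set shared by Ndufs6 and Ndufs6b had means of 7.86 in control, 6.83 in sensitive and 7.11 in resistant arrays. Others differed in direction. In the same order, the probe set shared by Ndufab1 and Ndufab1-ps had 6.88, 7.49 and 6.70. The dimmer probe set shared by Ndufa11 and Ndufa11b had 3.56, 3.65 and 3.65.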

How the data were processed

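Per the labels, the authors sorted cells on CD31, labeled RNA with biotin by the Affymetrix protocol and summarized arrays with MAS5; the version is not given in the sources used here. The study's methods name bead chips, while the probe set names are those of an Affymetrix array. The deposited table holds 1 log2 value per probe set (45101 probe sets), from 0.461 to 13; its log base is not stated and was taken as 2. Trimmed (2%) linear means ran from 19.4 to 33.5, a 1.73-fold range above the limit of 1.5, so arrays were quantile normalized, floored at the 30th percentile (2.02), reduced to 1 probe set per gene and kept above the floor on at least 4 arrays. Of the probe sets 34958 had 1 symbol, 932 several and 9211 none listed.

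Groups were compared with limma 3.58.1 (lmFit, eBayes with an intensity trend, 10 residual df) in R 4.3.3 over all 13 arrays, with Benjamini-Hochberg adjustment over all 15370 genes, two-sided, and with the exact two-sided permutation test over arrays. The latter was planned with adjustment over the members and is adjusted over all genes instead. Scripts were tested on simulated data. Members and lists were chosen with earlier results of these data known. Named members are the 5 with the smallest p per comparison, the core subunits, Ndufa4, Ndufa4l2, and the highest and lowest of each part of the complex; others named were chosen after their values were seen, among them the members whose groups do not overlap. Array number limits the precision. Alternatives covered scaling, floor, filter, probe set choice, variance model, covariates and left-out arrays. No protein sequences were compared.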

Additional observations from a re-analysis of the deposited data

Results flagged for a closer look

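Single arrays stood apart from the rest of their group for 5 members, by the gap to the nearest array as a share of the group's range (Dixon's test). This is 5 of 108 groups looked at (4.63%), and chance gives about 1 in 20. Ndufa10 was 7.55 on resistant 4 against 6.81 to 6.82 on the other resistant arrays. Ndufs8 was 8.35 on resistant 4 against 7.55 to 7.67. Ndufb3 was 5.09 on resistant 3 against 5.62 to 5.68. Ndufa2 was 8.02 on control 5 against 8.39 to 8.49. Ndufs1 was 5.21 on control 3 against 5.88 to 6.07.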

How the results depend on the processing

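The lower median of complex I genes in resistant than in control arrays (log2 -0.35) was negative under each of the 31 alternatives run, from -0.48 with arrays centred on their medians to -0.15 without sensitive 1 and 2 and resistant 2 and 3. Several of these alternatives could not move it, since they leave the resistant and control means as they are. These were leaving out only sensitive arrays, no intensity trend, the plain t-test and a fit on only the arrays compared. Using no floor, or only genes above the floor on all arrays, belongs here too. A floor at the 50th percentile also left the median at -0.35. In resistant minus sensitive arrays the median ran from -0.33 to -0.089 with 1 array left out, but was 0.1001 in the values as deposited and 0.19 with median centring. In sensitive minus control arrays it ran from -0.25 to 0.033 with 1 array left out, was -0.44 in the values as deposited and -0.57 with median centring. The count of members called was 0 in the main fit of each comparison. It was 3 in resistant minus control with array weights, beside 0.221% of all genes. In sensitive minus control it was 1 with the 3' to 5' covariate (2.76% of all genes), 0 to 2 with 1 array left out (2 without sensitive 4, 4.53%), and 3 without sensitive 4 and resistant 4 together (3.87%), a setting added after the data were seen, as were all settings for counts without overlap. The methods name a t-test with a random variance model at an unadjusted threshold. A plain version of the methods' t-test, without that model, had an unadjusted p under 0.05 for 11 lower members in resistant minus control (3.46% of all genes), for 10 lower and 2 higher in sensitive minus control (4.72% and 4.2%) and for 0 in resistant minus sensitive (1.55% of all genes lower and 1.89% higher), and 0 members after Benjamini-Hochberg adjustment in each. Members below control without overlap were 4 in sensitive arrays (1.59% of all genes). They numbered 0 with median centring (1.59%), 1 with the mean of all probe sets (1.41%), 10 without control 4 and 5 (3.37%), 13 without sensitive 1, 2 and 3, which leaves 1 array (18.6%), and 4 to 8 with 1 array left out, the 8 without control 5 (2.44%) or sensitive 3 (3.04%). In resistant arrays the 7 (1.39%) became 12 without control 4 and 5 (3.17%), 11 without sensitive 4 and resistant 4 (2.17%), and 7 to 11 with 1 array left out, the 11 without resistant 4 (2.17%). This count was 9 in the values as deposited (1.07%) and 8 with median centring (0.956%). It was 6 with the mean of all probe sets (1.16%), without Ndufb2, and 6 with the most variable probe set (1.42%), without Ndufb2 and Ndufs4. In resistant minus sensitive the 0 (0.898%) became 1 with median centring (0.508%), 7 without sensitive 4 and resistant 4 (6.66%), and 0 to 4 with 1 array left out, the 4 without resistant 4 (2.2%). Correlations of deviations between same-numbered arrays ran from -0.43 to 0.53, which does not settle whether replicate numbers pair the arrays. The replicate block called 0 members in each comparison, as did the main fit. Its medians were -0.18, -0.15 and -0.32 in resistant minus sensitive, sensitive minus control and resistant minus control.

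The sign turned for members with small differences, none of them called. In resistant minus sensitive, Ndufv1 was 0.044 as deposited, 0.13 with median centring and 0.048 with array weights, and Ndufs8 was 0.053 with median centring. Without sensitive 1, 2 and 3, Ndufa9 was -0.17, Ndufb9 0.14, Ndufa4l2 0.31, Ndufs3 -0.16 and Ndufv1 0.23. Without sensitive 1 and 2 and resistant 2 and 3, Ndufa7 was 0.11, Ndufa9 -0.016, Ndufa4l2 0.50, Ndufs1 -0.13, Ndufs3 -0.019 and Ndufv1 0.24. With 1 array left out, Ndufs1 ran from -0.044 to 0.50, Ndufs3 from -0.11 to 0.37 and Ndufv1 from -0.46 to 0.051.

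In sensitive minus control, Ndufs7 was 0.063 with array weights and 0.0082 with the 3' to 5' covariate, under which Ndufv1 was 0.18. Ndufs1 was 0.031 without control 4 and 5. Without sensitive 1, 2 and 3, Ndufa4l2 was -0.056, Ndufs1 0.012 and Ndufs7 0.076. Without sensitive 1 and 2 and resistant 2 and 3, Ndufa4l2 was -0.23, Ndufs1 0.43 and Ndufs7 0.46. Without sensitive 4 and resistant 4, Ndufa4 was 0.014 and Ndufv1 0.057. With 1 array left out, Ndufa4 ran from -0.32 to 0.014, Ndufs1 from -0.36 to 0.19, Ndufs7 from -0.33 to 0.13 and Ndufv1 from -0.45 to 0.057. In resistant minus control, Ndufs1 was -0.0073 with median centring, Ndufs8 -0.051 with the most variable probe set, and Ndufv2 -0.093 with array weights and -0.12 without sensitive 4 and resistant 4. With 1 array left out, Ndufs1 ran from -0.003 to 0.25 and Ndufv2 from -0.12 to 0.35. The cause of these turns was not tested.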
